A study of Homo sapiens with 7 samples.

Results

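Nucleosomes carrying H3K4me3 and H3K27ac, but with no called peak of H3K9ac, H3K27me3 or H3K9me3, were described in HepG2, an established human liver cancer cell line. They were chosen by identifier: a nucleosome counted when its identifier was in the peak lists of H3K4me3 and of H3K27ac and in none of the other 3 histone peak lists. There were 3821 such nucleosomes among 14217405 nucleosome positions, which is 0.0269% (95% Clopper-Pearson interval 0.0260 to 0.0277%). The 5 histone marks were mapped by ChIP-Seq of crosslinked, sonicated chromatin, the positions by MNase-Seq, in which native chromatin is digested with micrococcal nuclease, and expression by RNA-Seq. The labels give 1 sample per assay, or 7 in all, from the same cultured line and with no second condition. There was thus no group to test, and only the RNA-Seq table has 2 value columns, which the labels do not describe as replicates. As positions and genes are not replicates, each interval below covers counting error only. Differences between kinds of nucleosomes carry a Newcombe 95% interval and the number of chromosomes, of the 23 with at least 20 of these nucleosomes, on which the difference had the same sign. The lists hold neither reads nor peak heights, so the depth behind a peak is unknown and a missing H3K9ac peak means only that none was called. The libraries were made from cell populations, so marks called at 1 position may sit in different cells or on different alleles, and fewer marked cells cannot be told apart from less mark per cell.

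H3K4me3 is a histone mark of active gene starts, laid down by methyltransferases of the SET1 and MLL families. H3K27ac is deposited mainly by p300 and CBP at active promoters and enhancers, and H3K9ac, deposited by acetyltransferases such as GCN5 and PCAF, is best known from active promoters. The 3 marks usually occur together around the transcription start sites (TSSs) of transcribed genes, while H3K27me3 and H3K9me3 mark repressed chromatin. A nucleosome with H3K4me3, H3K9ac and H3K27ac and no repressive mark is called trivalent here.

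To show the DNA before the starts of genes that carried the nucleosomes, 4 RefSeq promoters (build GRCh38.p14) were printed from 5′ to 3′. They are the 250 bases before the annotated gene start, on the strand of the gene, with each CG dinucleotide in capitals. KIAA1161 and RPS24 were among the genes with the most H3K4me3/H3K27ac nucleosomes, and DUSP9 and RBM3 among the most highly expressed genes with one and without a trivalent nucleosome. The nucleosome positions are in build hg19 and were not placed on these sequences. The RefSeq gene starts were not compared with the TSSs used below, which are ends of the RNA-Seq loci. Where the starts differ, a nucleosome called downstream of the locus end can lie upstream of the RefSeq start. These 4 were picked from the named genes after their values were seen.
KIAA1161: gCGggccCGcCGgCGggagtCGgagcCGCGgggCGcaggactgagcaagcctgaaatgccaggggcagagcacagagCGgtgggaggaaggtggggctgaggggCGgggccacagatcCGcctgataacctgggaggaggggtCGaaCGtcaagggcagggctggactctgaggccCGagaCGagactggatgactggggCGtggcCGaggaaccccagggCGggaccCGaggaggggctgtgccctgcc
RPS24: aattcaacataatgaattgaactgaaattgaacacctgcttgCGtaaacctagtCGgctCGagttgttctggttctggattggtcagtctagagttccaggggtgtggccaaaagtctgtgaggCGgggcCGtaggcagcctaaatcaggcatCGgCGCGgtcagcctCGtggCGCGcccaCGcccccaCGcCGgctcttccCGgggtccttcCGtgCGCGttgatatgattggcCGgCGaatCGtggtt
DUSP9: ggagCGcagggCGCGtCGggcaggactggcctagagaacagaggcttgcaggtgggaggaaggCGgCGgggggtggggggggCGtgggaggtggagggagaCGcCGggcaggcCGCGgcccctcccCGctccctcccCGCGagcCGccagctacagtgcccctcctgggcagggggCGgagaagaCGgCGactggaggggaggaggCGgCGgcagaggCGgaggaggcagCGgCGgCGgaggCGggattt
RBM3: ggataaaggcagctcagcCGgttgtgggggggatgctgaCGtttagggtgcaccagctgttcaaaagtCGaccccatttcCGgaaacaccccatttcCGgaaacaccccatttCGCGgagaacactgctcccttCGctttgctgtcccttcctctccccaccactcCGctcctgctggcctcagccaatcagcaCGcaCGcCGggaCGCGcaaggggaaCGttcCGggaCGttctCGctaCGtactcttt
The KIAA1161 sequence lies at chr9:34376899-34377148 on the minus strand and holds 19 CG dinucleotides. RPS24 lies at chr10:78033613-78033862 on the plus strand and holds 21. DUSP9 lies at chrX:153642191-153642440 on the plus strand and holds 25. RBM3 lies at chrX:48574234-48574483 on the plus strand and holds 19. All 4 stretches were rich in CG, but not unusually so among promoters: as many CG or more were found in 34.3% of the 27305 RefSeq promoters for KIAA1161 and RBM3, 29.8% for RPS24 and 21.3% for DUSP9, over the same 250 bases. CG reads the same on both strands. CG content was not compared between sets of genes. The RefSeq promoters covered only 79.4% of the genes with an H3K4me3/H3K27ac nucleosome and 71.9% of all genes analysed.

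In the deposited lists, H3K4me3 and H3K27ac were seldom called together without H3K9ac. The lists hold 203848 marked positions, fewer than the study describes, so the shares below hold for these lists. Of the 46710 positions with both marks, 42887 carried H3K9ac, or 91.8% (91.6 to 92.1%). The 3821 H3K4me3/H3K27ac nucleosomes made up 8.18% (7.93 to 8.43%) of them, and only 2 more positions had both marks, a repressive mark and no H3K9ac. The other pairs of active marks stood without the remaining active mark more often. H3K4me3/H3K9ac with no other mark made up 26.1% (25.7 to 26.4%) of the 58248 positions with that pair, and H3K9ac/H3K27ac with no other mark 16.7% (16.3 to 16.99%) of the 51478 positions with that one. The shares differ in their denominators and come from lists of unequal length. Among all positions with at least 1 mark, 1.87% (1.82 to 1.93%) were H3K4me3/H3K27ac nucleosomes. The share of H3K4me3 and H3K27ac positions without H3K9ac ranged from 6.12 to 10.8% over the 23 chromosomes, with a median of 8.22%.

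The H3K4me3/H3K27ac nucleosomes were found near TSSs less often than trivalent nucleosomes and far more often than nucleosomes with H3K27ac alone. The TSS was taken from 13289 named genes with coordinates of their own in the RNA-Seq table, as the end of the locus given by the inferred strand. Within 2 kb of a TSS lay 1162 of the 3821, or 30.4% (29.0 to 31.9%). The share was 43.4% for trivalent nucleosomes, 43.3% for H3K4me3/H3K9ac, 37.7% for H3K4me3 alone and 3.54% for H3K27ac alone. The difference from trivalent nucleosomes was -13.0 percentage points (-14.5 to -11.4), with that sign on 23 of 23 chromosomes, and the difference from H3K27ac alone was 26.9 points (25.4 to 28.4), also on 23 of 23. The H3K4me3/H3K27ac share thus lay between those of its 2 marks taken alone, and nearer to that of H3K4me3. Within 250 bp of a TSS were 255 of the nucleosomes (6.67%), and 2240 lay beyond 10 kb from any TSS analysed.

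When all named loci were used, 1670 (43.7%) were within 2 kb of a TSS. A further 1355 (35.5%) lay inside a named locus beyond 2 kb, and 796 (20.8%) outside named loci. For trivalent nucleosomes the same places held 60.7%, 30.6% and 8.72%, and for H3K27ac alone 5.51%, 57.6% and 36.9%. About as many nucleosomes with H3K4me3 alone, 20.6%, lay outside named loci as H3K4me3/H3K27ac nucleosomes. The outside share was above that of trivalent nucleosomes, and the intervals of the pair (19.6 to 22.2% and 8.45 to 8.99%) did not overlap.

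Near TSSs the nucleosomes were less skewed to the transcribed side than the other nucleosomes with H3K4me3. Of the 1162 within 2 kb, 762 lay downstream, or 65.6% (62.8 to 68.3%), at a median of 736 bp, and 400 upstream, at a median of -355 bp (negative is upstream). Downstream shares were 80.3% for trivalent, 79.4% for H3K4me3/H3K9ac, 72.5% for H3K4me3 alone and 37.0% for H3K27ac alone. The difference was -14.7 points (-17.5 to -11.95) from trivalent nucleosomes, with that sign on 20 of 23 chromosomes, and -6.89 points (-9.82 to -4.05) from H3K4me3 alone, on 18 of 23.

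The share of H3K4me3 and H3K27ac positions without H3K9ac changed with the side of the TSS. Upstream within 2 kb it was 400 of 4070, or 9.83% (8.93 to 10.8%), and downstream 762 of 15705, or 4.85% (4.52 to 5.20%). The lowest bin was 250 to 500 bp downstream, where 116 of 3906 positions lacked H3K9ac, or 2.97% (2.46 to 3.55%). Farther into the gene it was 4.47% from 500 to 750 bp, 6.39% from 750 to 1000 bp, 7.55% from 1000 to 1500 bp and 6.52% (5.08 to 8.22%) from 1500 to 2000 bp, the last 3 with overlapping intervals. It was 8.42% from 2 to 5 kb and 12.3% (10.2 to 14.7%) from 5 to 10 kb downstream. Upstream, the bins from -250 to 0 bp (10.05%), -500 to -250 bp (9.92%) and -1000 to -500 bp (9.03%) had overlapping intervals. The share was 14.4% (11.4 to 17.9%) between 5 and 2 kb upstream and 9.73% (9.35 to 10.1%) beyond 10 kb from any TSS analysed. That last group includes positions at starts of named loci outside the 13289 genes. So H3K9ac was called on nearly all nucleosomes with the other 2 marks just inside the gene. It was called less often upstream and beyond 5 kb of the TSSs analysed on either side.

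**Figure D1:**
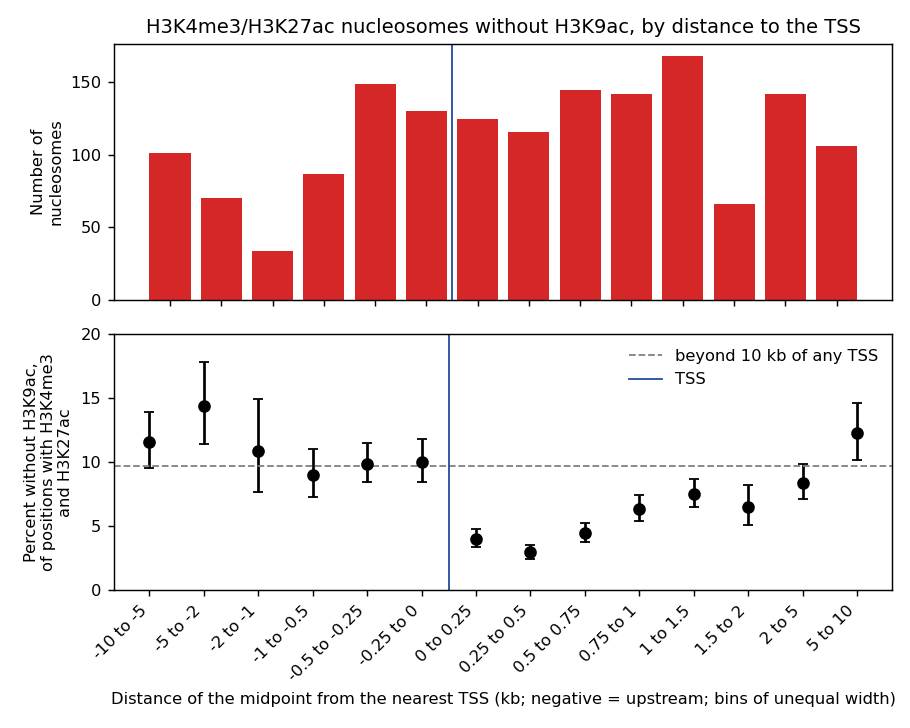
Upper panel, the number of H3K4me3/H3K27ac nucleosomes without another mark in bins of distance from the nearest TSS in kb (bins of unequal width, negative is upstream). Lower panel, their percentage of all positions with H3K4me3 and H3K27ac in the same bin, with 95% Clopper-Pearson intervals. The dashed line is for positions beyond 10 kb from any TSS analysed, which include starts of other named loci. All bins from 0 to 2 kb downstream lie under 8%, and those upstream at 9.03% or more.

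Most H3K4me3/H3K27ac nucleosomes stood beside a nucleosome with H3K9ac. At least 1 of the 2 adjacent positions carried H3K9ac for 2668, or 69.8% (68.3 to 71.3%), against 50.1% for H3K4me3 alone and 15.0% for H3K27ac alone. Among kinds that carry H3K9ac themselves, the share was 93.9% for trivalent, 82.2% for H3K4me3/H3K9ac and 65.9% for H3K9ac/H3K27ac. Both adjacent positions carried it for 761 (19.9%) and exactly 1 for 1907 (49.9%). The difference from H3K4me3 alone was 19.7 points (18.1 to 21.3), on 23 of 23 chromosomes. A trivalent neighbour was found for 2333 (61.1%), and a trivalent nucleosome on both sides for 481 (12.6%). For trivalent nucleosomes these shares were 86.5% and 36.9%. The commonest setting was a trivalent nucleosome on one side and no mark on the other, with 830 nucleosomes (21.7%). Thus the nucleosomes were mostly next to H3K9ac, on 1 side more often than on both.

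**Figure D2:**
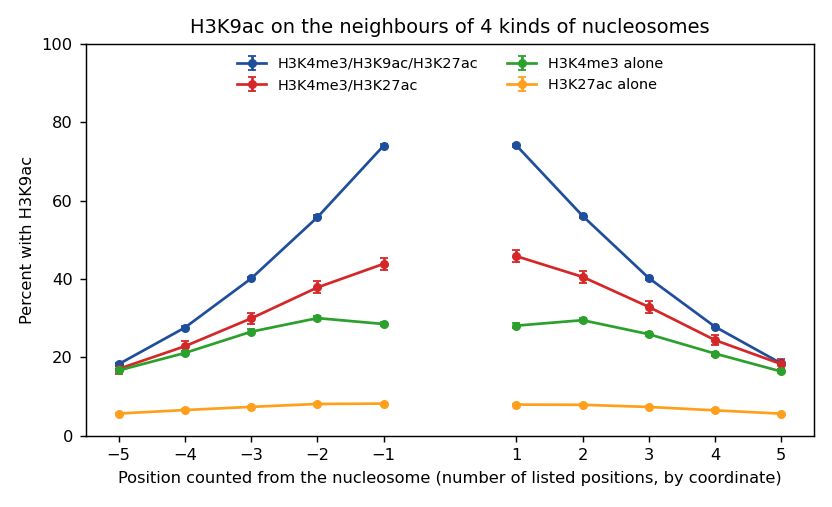
Percentage of positions with H3K9ac (y axis) at 1 to 5 listed positions on either side (x axis, by coordinate, not by gene direction) of 4 kinds of nucleosomes, with 95% Clopper-Pearson intervals. Beside H3K4me3/H3K27ac nucleosomes it was 43.9% and 45.9% at the adjacent positions, between trivalent nucleosomes (74.1% on both sides) and the kinds with 1 mark, and 17.1% and 18.3% at the fifth position.

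Neighbours with only 1 of the 2 marks were fewer. H3K4me3 alone was on a neighbour of 846 nucleosomes (22.1%) and H3K27ac alone on a neighbour of 462 (12.1%), and 30 (0.785%) had one of each, one per side. Another H3K4me3/H3K27ac nucleosome was adjacent for 736 (19.3%), while 6.43% of trivalent nucleosomes had an H3K4me3/H3K27ac neighbour. A neighbour of the own kind was commoner for trivalent nucleosomes (86.5%), H3K27ac alone (61.0%) and H3K4me3 alone (49.7%), but these kinds are also more numerous. Over all positions, an H3K4me3/H3K27ac neighbour was found for only 0.0526%. A trivalent neighbour was found for 0.472% of all positions, H3K27ac alone for 0.497% and H3K4me3 alone for 0.306%. A repressive mark was on a neighbour of 6 nucleosomes. No mark was on either neighbour of 228 (5.97%), which stood alone.

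**Figure D3:**
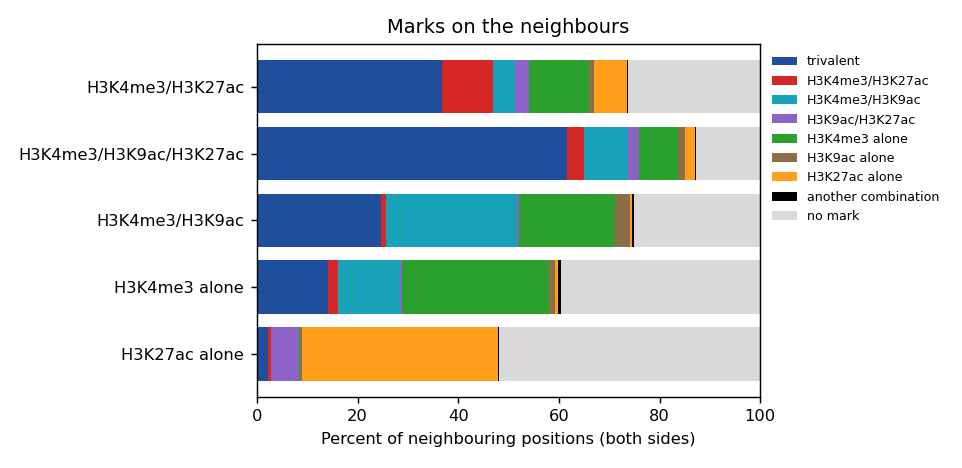
Marks on the adjacent positions of 5 kinds of nucleosomes, as a percentage of neighbouring positions on both sides (x axis). For the H3K4me3/H3K27ac row at the top, 36.8% of the neighbours were trivalent, 10.2% of the same kind, 11.96% H3K4me3 alone, 6.69% H3K27ac alone and 26.3% unmarked.

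Around a TSS the neighbour on the TSS side carried H3K9ac more often than the outer one. For the 400 upstream nucleosomes H3K9ac was on the TSS-side neighbour of 269 (67.3%, 62.4 to 71.8%) and on the outer neighbour of 146 (36.5%, 31.8 to 41.4%). For the 762 downstream nucleosomes it was on 491 (64.4%, 60.9 to 67.8%) and 346 (45.4%, 41.8 to 49.0%). H3K4me3 and H3K27ac were likewise more frequent on the TSS side: upstream, H3K4me3 was on 84.3% of the TSS-side neighbours and 48.3% of the outer ones, and H3K27ac on 73.5% and 41.5%. An H3K4me3-alone neighbour was found for 28.3% (25.2 to 31.7%) of the downstream and 16.8% (13.2 to 20.8%) of the upstream nucleosomes. Beyond 10 kb from any TSS of the 13289 genes, 65.8% had H3K9ac on a neighbour, against 81.2% within 2 kb. Starts of other named loci were not counted here, so those beyond 10 kb are not all far from a gene start. With all named loci, 1670 H3K4me3/H3K27ac nucleosomes were within 2 kb of a TSS, against 1162 with the 13289 genes.

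The nearest H3K9ac nucleosome lay at a median of 247 bp from an H3K4me3/H3K27ac nucleosome, against 365 bp for H3K4me3 alone and 6070 bp for H3K27ac alone. It lay within 200 bp for 1459 (38.2%) and from 200 to 500 bp for 1432 (37.5%). For 551 (14.4%, 13.3 to 15.6%) there was none within 1 kb. Of these 551, 41 (7.44%, 5.39 to 9.96%) were within 2 kb of a TSS, against 34.3% (32.7 to 35.9%) of the 3270 with H3K9ac nearer by. Of the 551, 154 (27.9%) had no mark on either neighbour, 264 (47.9%) had H3K4me3 on one and 293 (53.2%) H3K27ac. These shares are not set against the others, whose nearby H3K9ac is often on a neighbour by the choice itself. Because positions may overlap, 548 nucleosomes (14.3%) were overlapped by at least 1 bp by an H3K9ac peak called on another position, and without them 3273 remained.

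A run is a stretch of consecutive listed positions that each carry H3K4me3, H3K9ac or H3K27ac. The H3K4me3/H3K27ac nucleosomes stood at the edge of a run in 1554 cases, or 40.7% (39.1 to 42.2%), inside one in 2039 (53.4%) and alone in 228 (5.97%). Trivalent nucleosomes were at an edge in 22.8%, a difference of 17.8 points (16.2 to 19.5) with the same sign on 23 of 23 chromosomes. H3K4me3 alone was at an edge in 54.2% and H3K27ac alone in 47.3%. No difference was detectable from H3K4me3/H3K9ac, at 41.1%, where it was -0.41 points (-2.15 to 1.33). The median run length was 6 positions for runs counted from H3K4me3/H3K27ac nucleosomes and 7 from trivalent ones.

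H3K4me3/H3K27ac nucleosomes overlapped a neighbouring position, with starts less than 140 bp apart, in 1138 cases, or 29.8% (28.3 to 31.3%). Over all positions the share was higher, at 40.4%. The share was 24.6% for trivalent nucleosomes, a difference of 5.14 points (3.65 to 6.66) on 21 of 23 chromosomes. It was 39.6% for H3K27ac alone and 30.6% for H3K4me3 alone, and the difference from the latter, -0.81 points, had an interval that included 0 (-2.35 to 0.78). So did the difference from H3K4me3/H3K9ac, at 29.3%, which was 0.49 points (-1.11 to 2.13). The nearer neighbour was at a median of 164 bp, against 170 bp for trivalent nucleosomes and 148 bp over all positions.

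Most H3K4me3/H3K27ac nucleosomes were single: 3085 had none of their own kind on either side, while 312 runs had 2, 28 had 3 and 7 had 4. Of the 7, the 5 with the most H3K4me3/H3K27ac nucleosomes within 1 kb, or first in chromosome order, were named. One lay at chr10:52642987-52643839 (hg19), with the position nearest to the gene 1693.5 bp downstream of the TSS of A1CF, which encodes an RNA-binding partner in apolipoprotein B mRNA editing and had FPKM of 30.7 and 29.9 in the 2 RNA-Seq values. A second lay at chr21:45286774-45287451, 1809.5 bp downstream of the TSS of AGPAT3, a phospholipid acyltransferase gene with FPKM of 19.1 and 18.8. Another, at chr1:206285627-206286356, was 2442.5 bp downstream of C1orf186 (FPKM 12.1 and 11.8). The run at chr5:132209387-132210111 was 7369.5 bp from the nearest TSS, of a locus named for both LEAP2, a liver-expressed peptide gene, and UQCRQ, which encodes a subunit of respiratory complex III, and the nearest H3K9ac nucleosome was 4458 bp away. The run at chr14:54965085-54965654 was 9410.5 bp upstream of GMFB (FPKM 49.4 and 50.0). All 5 lay nearest to a gene that was expressed, and the nearest H3K9ac was from 202 to 622 bp away for the other 4.

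The cell line was checked in the RNA-Seq values, which are in FPKM, fragments normalised to gene length and to the fragments mapped in the library. The hepatocyte genes used as markers were expressed, up to 10011 for ALB, the albumin gene. Of the 11 markers of other cell types, 7 were below 1 FPKM and CD3E was listed at 0, while LYZ, the lysozyme gene, was at 1173. The part of other cell types in the values below was not tested.

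An H3K4me3/H3K27ac nucleosome lay within 2 kb of the TSS of 1038 of 13289 genes, or 7.81% (7.36 to 8.28%). Nearly all were expressed genes: 983, or 94.7% (93.2 to 96.0%), had FPKM of 1 or more, against 47.6% of all genes analysed. The trait was not particular to them. Genes with a trivalent and no H3K4me3/H3K27ac nucleosome were expressed in 84.9% with 1 trivalent nucleosome and up to 98.1% with 6 or more. Among the 6331 expressed genes 15.5% (14.6 to 16.4%) had one, among 1442 genes with FPKM from 0.1 to 1 it was 41 (2.84%), and among 5516 silent genes (FPKM under 0.1) 14 (0.254%, 0.139 to 0.425%). The silent share was 0.616% in a window of 5 kb and 1.04% (84 of 8072) when all named loci were used, below the expressed share in both. A single one was found at 876 of the 1038 genes, 129 genes had 2, 29 had 3, 3 had 4 and 1 had 5. At 976 of the genes there was also a trivalent nucleosome, and 62 had none. A nucleosome with H3K27me3 or H3K9me3 was within 2 kb at 16 (1.54%, 0.884 to 2.49%), close to the 1.69% of genes with a trivalent nucleosome and no H3K4me3/H3K27ac nucleosome. No H3K9ac at all was called within 2 kb of 20 of the genes.

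Genes with more marked nucleosomes have more chances to hold any 1 kind, so expression was compared between genes with the same number of trivalent nucleosomes. Genes with 6 or more were taken as 1 group and not matched further. Among the 976 with at least 1 trivalent nucleosome, 514, or 52.7% (49.5 to 55.8%), exceeded the median FPKM of genes of the same group with no H3K4me3/H3K27ac nucleosome. There were 9 alternatives. Against the median, the interval excluded 50% at genes with no other TSS within 10 kb (54.2%, 50.5 to 58.0%) and with all named loci (53.1%, 50.6 to 55.6%). It included 50% under the other alternatives against the median. The share was 54.9% (51.7 to 58.1%) against the mean of log2(FPKM + 0.01) and 50.8% (47.6 to 54.0%) against the mean of log2(FPKM + 1). A mean of logs need not split like genes at 50%, so those shares are not read against it. With 1 trivalent nucleosome the median FPKM was 8.51 (quartiles 4.33 and 17.6, 113 genes) with an H3K4me3/H3K27ac nucleosome and 6.21 (1.85 and 14.7, 774 genes) without, and 93.8% (87.7 to 97.5%) and 84.9% (82.2 to 87.3%) were expressed. With 2 it was 13.1 (174 genes) and 10.2 (938 genes), with 3 it was 12.6 (221 genes) and 12.1 (993 genes), with 4 it was 17.1 (174 genes) and 15.0 (816 genes), with 5 it was 16.0 (133 genes) and 18.1 (511 genes), and with 6 or more 18.7 (161 genes) and 18.1 (689 genes). The median was higher with the H3K4me3/H3K27ac nucleosome at each number except 5, and by the widest ratio at 1.

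Without a trivalent nucleosome the values were further apart. The 62 genes with an H3K4me3/H3K27ac nucleosome had a median FPKM of 3.50 (quartiles 1.23 and 12.9), and 48 of them, or 77.4% (65.0 to 87.1%), were expressed. The 1437 genes with H3K4me3 but neither kind had a median of 0.225 (quartiles 0.0408 and 1.59), and 30.5% (28.1 to 32.9%) were expressed. Genes with H3K4me3 and H3K27ac both called within 2 kb, but with neither kind of nucleosome, were few. A single nucleosome with both marks and a repressive mark was not excluded there. These 53 genes had a median of 1.71 (quartiles 0.150 and 10.03), and 28, or 52.8% (38.6 to 66.7%), were expressed, so that the intervals of the expressed shares of the 62 and of the 53 overlapped by a small margin. Of the 62 genes, 33 also carried an H3K4me3/H3K9ac nucleosome, and 30 of the 33, or 90.9% (75.7 to 98.1%), were expressed. Among 709 genes with H3K4me3/H3K9ac but neither a trivalent nor an H3K4me3/H3K27ac nucleosome, 44.9% (41.1 to 48.6%) were expressed. The number of H3K9ac nucleosomes was not held equal in these comparisons.

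**Figure D4:**
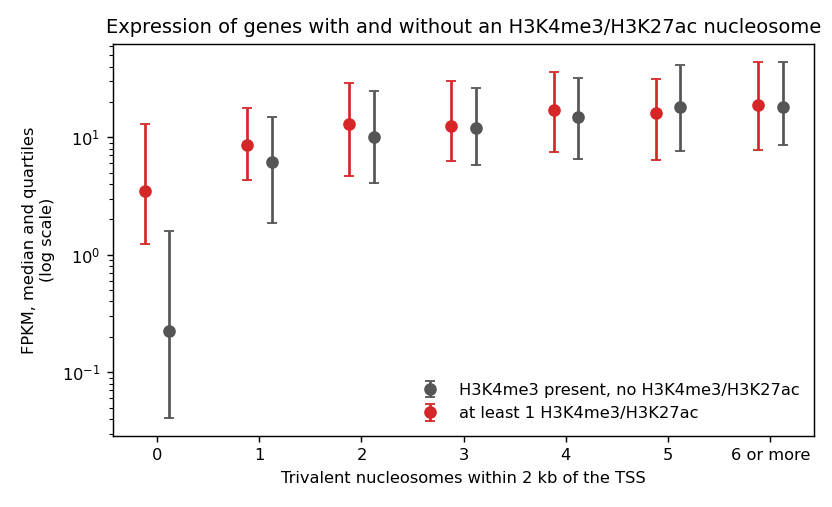
Median FPKM with quartiles (y axis, log scale) of genes with (red) and without (grey) an H3K4me3/H3K27ac nucleosome within 2 kb of the TSS, by the number of trivalent nucleosomes there (x axis); the grey genes at 0 are those with H3K4me3. The medians are 3.50 and 0.225 at 0 trivalent nucleosomes and 18.7 and 18.1 at 6 or more.

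The gene with the most H3K4me3/H3K27ac nucleosomes was CYP24A1, which encodes the vitamin D 24-hydroxylase, at chr20:52769988-52790715 on the minus strand, with FPKM of 31.0 and 30.7. It had 5, at 496.5 and 276.5 bp upstream and at 595.5, 943.5 and 1443.5 bp downstream of the TSS, and the last 3 were interspersed with 3 trivalent nucleosomes at 763.5, 1098.5 and 1273.5 bp. KIAA1161, a gene for a glycosidase-like protein on chromosome 9, had 4 (FPKM 16.995 and 17.4). One was 364.5 bp upstream, and the others were consecutive marked nucleosomes at 880.5, 1090.5 and 1265.5 bp, between 2 trivalent nucleosomes nearer the TSS and 3 with H3K27ac alone farther in. ZNF500, a zinc finger protein gene on chromosome 16, also had 4 (FPKM 3.34 and 3.05). All of them lay upstream, from 401.5 to 1798.5 bp, and 3 of its 4 trivalent nucleosomes lay downstream. ADAMTS6, a secreted metalloprotease gene on chromosome 5, had 4 beside only 1 trivalent nucleosome and was below the limit for expression in both values (FPKM 0.821 and 0.959). RPS24, a gene for a protein of the small ribosomal subunit, had 3, with FPKM of 1168 and 1210, and was taken from the 29 genes with 3 as the one of highest FPKM. Its 3 were at 131.5 bp upstream and at 303.5 and 1301.5 bp downstream, the last beyond all other marked nucleosomes there.

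Among the 62 genes with an H3K4me3/H3K27ac nucleosome and without a trivalent one, the highest FPKM was that of DUSP9, which encodes a phosphatase of mitogen-activated protein kinases, at chrX:152906330-152916824 on the plus strand (FPKM 259 and 253). Its H3K4me3/H3K27ac nucleosome, 1246.5 bp downstream of the start of that locus, was the only marked nucleosome within 2 kb of it. The same was seen at TTR on chromosome 18, the gene for transthyretin, a carrier of thyroid hormone and retinol-binding protein made by the liver. Its single marked nucleosome was 186.5 bp downstream, with FPKM of 157 and 146.97. RBM3, which encodes a cold-inducible RNA-binding protein (FPKM 82.0 and 87.6), had one 127.5 bp upstream, followed by H3K4me3 alone at 41.5 bp and H3K4me3/H3K9ac at 1214.5 bp downstream. At ST6GAL1, a sialyltransferase gene (FPKM 62.7 and 62.1), it was 1831.5 bp downstream, beyond 4 H3K4me3/H3K9ac nucleosomes, while a nucleosome 638.5 bp upstream carried H3K27me3. At MRPL10, a mitochondrial ribosomal protein gene (FPKM 40.0 and 39.4), it was 815.5 bp downstream, beyond 2 H3K4me3/H3K9ac nucleosomes. The H3K4me3/H3K27ac nucleosome was thus the only H3K27ac nucleosome within 2 kb of each of these 5 genes.

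The 5 most highly expressed genes with an H3K4me3/H3K27ac nucleosome were EEF1A1, RPS15A, RPL19, RPLP0 and APOB. EEF1A1, which encodes the elongation factor that brings aminoacyl-tRNA to the ribosome, was at 3781 and 3700 FPKM, and its nucleosome was 409.5 bp upstream, with 5 of its 6 trivalent nucleosomes downstream. RPL19 (FPKM 1313 and 1324) had it 409.5 bp upstream as well, upstream of all other marked nucleosomes. RPLP0, for the stalk protein of the large ribosomal subunit (FPKM 1302 and 1300), had 2, at 469.5 and 132.5 bp upstream, and 2 nucleosomes downstream with H3K9me3 beside the 3 active marks. RPS15A (FPKM 2416 and 2641) had one 259.5 bp downstream, between 2 trivalent nucleosomes at 153.5 bp upstream and 433.5 bp downstream. APOB, which encodes the main protein of low-density lipoprotein (FPKM 1237 and 1265), had one 1538.5 bp downstream, between H3K4me3 alone and a trivalent nucleosome. These genes carried from 2 to 6 trivalent nucleosomes, so that the H3K4me3/H3K27ac nucleosome was the minority among their marked nucleosomes.

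**Figure D5:**
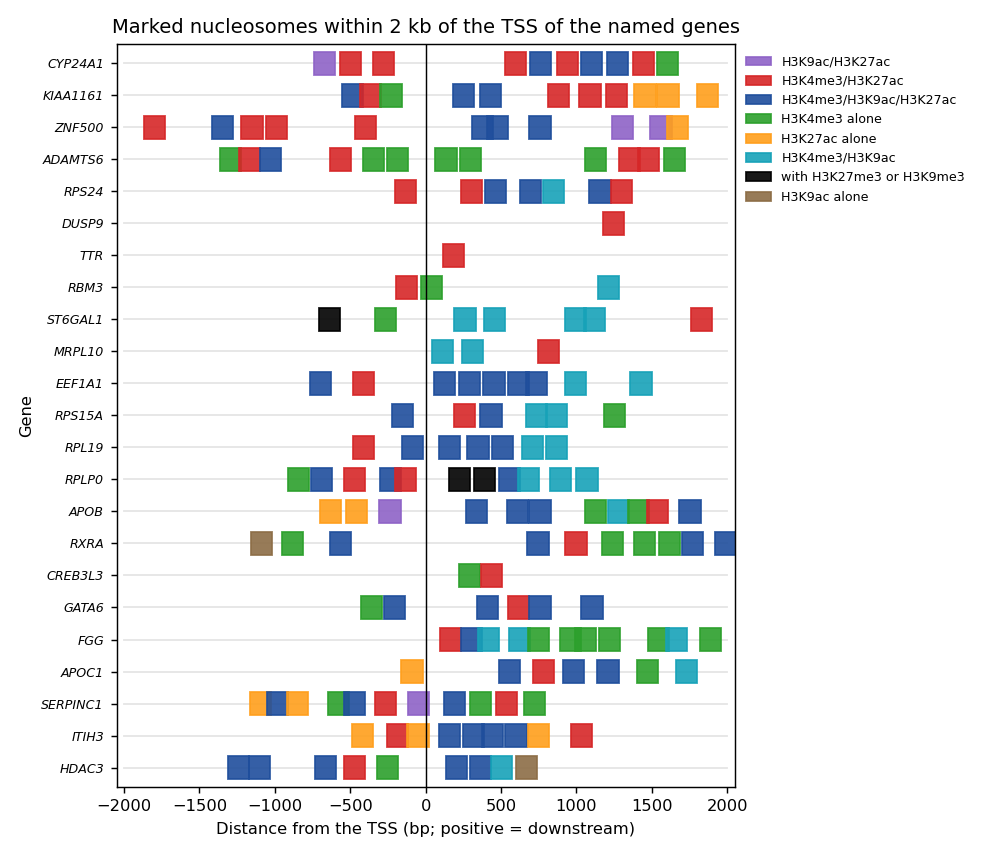
Marked nucleosomes within 2 kb of the TSS of the 23 named genes, 1 gene per row, by distance of the midpoint from the TSS in bp (x axis, positive is downstream), each drawn as a box of 140 bp and coloured by its marks. The H3K4me3/H3K27ac nucleosomes (red) are the only marked ones at DUSP9 and TTR and lie among trivalent nucleosomes (blue) at genes such as EEF1A1 and CYP24A1.

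The lists of genes were read against the 15.5% of expressed genes with an H3K4me3/H3K27ac nucleosome. Of 31 liver secreted protein genes analysed (of 42 listed), 6 had one (19.4%): APOB, TTR, FGG for the gamma chain of fibrinogen, APOC1 for an apolipoprotein, SERPINC1 for antithrombin and ITIH3 for an inter-alpha-trypsin inhibitor heavy chain. FGG (FPKM 467 and 465) had it 162.5 bp downstream, as the first marked nucleosome after the TSS, followed by its single trivalent nucleosome at 302.5 bp. APOC1 (FPKM 434 and 448) had it 779.5 bp downstream, between 2 of its 3 trivalent nucleosomes. SERPINC1 (FPKM 152 and 153) had 2, at 263.5 bp upstream and 534.5 bp downstream, and ITIH3 (FPKM 43.6 and 44.6) had 2, at 187.5 bp upstream and 1032.5 bp downstream. The place of the nucleosome was thus not the same from one of these genes to the next.

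Of 20 hepatocyte transcription factor genes analysed (of 30 listed), 3 had one (15.0%). RXRA, for the nuclear receptor that pairs with many others (FPKM 14.3 and 14.4), had it 997.5 bp downstream, and GATA6, for a zinc finger factor of the endoderm (FPKM 2.68 and 3.19), 618.5 bp downstream, each next to a trivalent nucleosome among the marked ones. CREB3L3, for a membrane-bound factor of the liver (FPKM 5.24 and 4.69), had no H3K9ac within 2 kb, and its H3K4me3/H3K27ac nucleosome at 438.5 bp followed H3K4me3 alone at 288.5 bp. Of 30 cytosolic ribosomal protein genes analysed (of 79 listed), 9 had one (30.0%), namely RPL19, RPL22, RPL26, RPL29, RPLP0, RPS14, RPS15, RPS15A and RPS24. With a median FPKM of 1038, these 30 genes were all expressed. Ribosomal protein genes and EEF1A1 have many near-identical pseudogene copies, so their FPKM values and the reads behind their peaks are uncertain.

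Of 15 genes analysed (of 22 listed) for H3K9 and H3K27 acetylation and deacetylation, 1 had an H3K4me3/H3K27ac nucleosome, namely HDAC3, a deacetylase gene (FPKM 30.3 and 27.3), at 473.5 bp upstream. None was found at 10 genes of H3K4 methylation and demethylation, all of which were expressed, or at 9 HOX genes, none of which was. These lists are short, and no list was tested.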

How the data were processed

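ChIP-Seq of crosslinked chromatin, native MNase-Seq and RNA-Seq of HepG2 cells were analysed from the files that the authors deposited, with 1 sample per assay in the labels. The authors mapped MNase-Seq reads to hg19 (BWA, per the submitters' processing notes) and called positions with DANPOS. They called peaks at those positions with NUCLIZE, at P and FDR of 0.01 or less and at least 4-fold enrichment. The tests were against input and against local ChIP background. Peaks with an oblique or U-shaped read profile within a position were also removed. The part of this shape filter in the missing H3K9ac peaks was not tested. The lists give coordinates and identifiers with no score, and each peak extends 3 bp beyond its position of 140 bp. The deposited FPKM values are 2 columns in Cuffdiff layout (TopHat2 2.1.0 in the processing notes), whose mean was used as 1 sample. The p-value and q-value columns compare these columns, are the authors' own and were not used. Depth is unknown, so no limit for low counts could be set.

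Identifiers were joined to 14217405 positions. The strand was inferred from the order of locus numbers, and 13289 genes with 1 symbol and coordinates of their own were kept of 22065 named loci with a strand. Intervals were 95% Clopper-Pearson or Newcombe, computed with scipy 1.17.1 under Python 3.11.15. Of these, only the Newcombe intervals were tested on simulated data, which were independent draws, unlike neighbouring positions. Named genes were the 5 with the most H3K4me3/H3K27ac nucleosomes within 2 kb of the TSS (ties by FPKM), the 5 of highest FPKM with one and no trivalent nucleosome, the 5 of highest FPKM with one, all such genes of the transcription factor, secreted protein and histone enzyme lists, and those nearest to the 5 longest runs. The nucleosomes and lists were chosen with earlier results of these data known. Of the 23 genes named by their nucleosomes within 2 kb, 17 had a promoter in the RefSeq table.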

Additional observations from a re-analysis of the deposited data

How the results depend on the processing

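Of 60 alternatives, 37 stayed within the counting error of the main value or, for counts of genes and nucleosomes, near it, and 23 moved. The limit for counts was wide: 9 liver secreted protein genes at 5 kb against 6, and 3273 nucleosomes against 3821, passed as near. Reversal was not scored as such, but 14 of 14 differences from trivalent nucleosomes kept their sign. When any overlap of 1 bp marked a position, 7.73% of H3K4me3 and H3K27ac positions lacked H3K9ac; an alternative added after seeing the data gave 8.83% upstream and 4.47% downstream in that setting. Within 2 kb of a TSS, 5.88% lacked it. The share near a TSS was 23.4% in a window of 1 kb, 35.96% at 5 kb, 43.7% with all named loci and 28.8% with expressed genes only, and the downstream share was 59.1% at 1 kb and 69.3% with all named loci. With 2 positions on each side, 81.1% had H3K9ac on a neighbour. The edge share was 35.8% with 1 unmarked position allowed in a run and 44.0% without overlapping neighbours. The overlapping share was 36.7% and 13.9% with a wider and a narrower limit of the spacing. Expressed genes with an H3K4me3/H3K27ac nucleosome were 12.2% at 1 kb, 17.7% at 5 kb, 13.2% at FPKM of 0.1 or more, 16.6% at 5 or more and 13.1% with all named loci, and silent genes 0.616% at 5 kb and 1.04% with all named loci. At 5 kb, 5 hepatocyte transcription factor genes had one. The alternatives' own windows, limits and gene sets set these shifts. No paired analysis was possible because each assay is 1 sample in the labels, so no sample could be left out either; each FPKM column used alone moved no value beyond its counting error. A stricter peak threshold could not be set because the lists hold no score.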
